A study of Mus musculus with 6 samples.

Results

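Adrenergic receptors and the proteins that pass on or shut off their signal were followed across 6 RNA-seq libraries of mouse left ventricle. The 9 genes, picked by name from the 34745 of the deposited gene table, were the beta receptors Adrb1 and Adrb3, the alpha-1 receptors Adra1a and Adra1b, the receptor kinase Grk5, the beta-arrestins Arrb1 and Arrb2, and the adenylyl cyclases Adcy5 and Adcy6. All 9 symbols were found, each in 1 row. The tissue came from male C57BL/6 mice, wild type and given as 8 weeks old in the labels. A first group of 3 libraries is labelled TAC, for transverse aortic constriction, in which a ligature narrows the aorta and raises the pressure load on the ventricle. The other group of 3 is labelled Sham, for the same surgery with no ligature, and in both groups the ventricle was taken 6 weeks later. Since no label ties a library to a single animal, p-values here reflect library-to-library spread only, which may be technical.

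Noradrenaline from sympathetic nerves and adrenaline from the blood drive the heart through these receptors. Beta receptors couple to the stimulatory G protein and to adenylyl cyclase, which makes cyclic AMP, and protein kinase A (PKA) then acts on calcium handling and the sarcomere. Alpha-1 receptors couple to Gq and phospholipase C. G protein-coupled receptor kinases phosphorylate an occupied receptor, and beta-arrestins then bind it, uncouple it from its G protein and carry it into the cell. Loss of beta-1 receptors and a rise of receptor kinases are widely described in the failing heart.

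Directions here follow the labels and need care. Nppa, the atrial natriuretic peptide gene that pressure overload is known to raise, stood at 1087 ± 704 CPM (counts scaled to a common library size; SD, n = 3) in the Sham-labelled libraries and at 83.9 ± 17.0 in the TAC-labelled ones (edgeR adjusted p = 0.0222). Acta1, skeletal actin, had the same direction (log2 difference -3.23, adjusted p = 0.0448). Thbs4, a matrix protein gene also known to respond to overload, had a log2 difference of -4.63 (adjusted p = 0.00792). Whether labels or columns of the groups were exchanged cannot be settled from these files; if they were, every direction given here would turn. The groups are therefore named by label only. Library totals over genes ran from 17399510 to 28401399 counts. Cardiomyocyte markers (6 genes) summed to 121377 to 148653 CPM in the TAC-labelled libraries and 104061 to 118863 in the Sham-labelled ones. Fibroblast markers (6 genes) summed to 1171 to 1649 and 1717 to 2254 CPM, and macrophage markers (6 genes) to 87.9 to 164 and 201 to 213 CPM. These 3 sums do not overlap between the groups, although none of their 18 genes passed the test. Most of the cardiomyocyte sum was Ttn (91463 of 148653 CPM in the library labelled TAC 1), and without Ttn the groups overlap. Of its genes Actc1 overlapped too, and Tnnc1 had a log2 difference of -0.14 while the others had positive ones. All fibroblast and macrophage markers had negative log2 differences. The groups overlapped in CPM for the fibroblast genes Gsn and Tcf21 and the macrophage gene Adgre1. Gsn made up 988 of the 1649 CPM of the fibroblast sum in the library labelled TAC 3. In bulk tissue a shift in the share of a cell type and a change in RNA per cell cannot be told apart.

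Promoter sequences are shown for the pair of receptor genes whose groups did not overlap, Adrb1 and Adra1b. The RefSeq promoter table used here (GRCm38.p6), which is not complete, held an entry for 4 of the 9 genes, Adrb1, Adra1b, Adcy5 and Grk5, and 2 alternative starts for Adra1b. Each window holds 250 bases before the start and 50 after it, written 5′ to 3′ on the gene's strand. Capitals mark the GC box, GGGCGG or its reverse complement CCGCCC.
Adrb1, chr19:56721867-56722166, plus strand: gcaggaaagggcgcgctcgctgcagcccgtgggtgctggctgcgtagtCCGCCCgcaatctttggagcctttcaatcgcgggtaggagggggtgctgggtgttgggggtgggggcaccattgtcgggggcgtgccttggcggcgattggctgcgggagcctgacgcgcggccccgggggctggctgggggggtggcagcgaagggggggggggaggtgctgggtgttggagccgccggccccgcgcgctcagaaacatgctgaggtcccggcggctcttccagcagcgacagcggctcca
Adra1b, first start, chr11:43901188-43901487, minus strand: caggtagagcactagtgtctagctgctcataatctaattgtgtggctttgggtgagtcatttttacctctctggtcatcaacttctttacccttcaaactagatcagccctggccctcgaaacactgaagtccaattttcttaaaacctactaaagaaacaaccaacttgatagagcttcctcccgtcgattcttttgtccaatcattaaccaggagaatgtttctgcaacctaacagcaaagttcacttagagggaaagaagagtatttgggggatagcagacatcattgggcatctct
Adra1b, second start, chr11:43836440-43836739, minus strand: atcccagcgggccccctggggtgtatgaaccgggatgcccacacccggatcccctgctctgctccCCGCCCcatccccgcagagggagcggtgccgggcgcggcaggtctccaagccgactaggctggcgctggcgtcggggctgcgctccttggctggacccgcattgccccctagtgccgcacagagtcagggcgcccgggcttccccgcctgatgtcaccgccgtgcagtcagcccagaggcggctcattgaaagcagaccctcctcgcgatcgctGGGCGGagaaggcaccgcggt

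The Adrb1 window is 72.3% G or C and holds 1 GC box; it ends before the start of the gene in the deposited table. The second Adra1b start is 71.3% G or C with 2. The first Adra1b start is 42.3% G or C and has no GC box. Of 32851 windows of the same length, 35.7% hold a GC box on either strand. Searched on both strands, the cyclic AMP response element TGACGTCA (in 1.79% of all windows), the M-CAT element CATTCC (14.7%) and the TATA box TATAAA (13.6%) were in none of the 5 windows of these genes. The search describes letters in these windows only.

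The levels of the 9 genes, per length, spanned a wide range. FPKM, a level per length and per sequencing depth, divides each count by a gene length, which ran from 2491 bases for Adrb1 to 16938 for Adra1a, and the order of levels depends on those lengths. In both groups Adcy6 was highest (51.7 ± 5.11 FPKM labelled TAC, 36.1 ± 3.33 labelled Sham; SD, n = 3), followed by Grk5 (19.4 ± 2.66 and 30.2 ± 6.95), Adcy5 (14.2 ± 2.10 and 13.4 ± 1.90) and Adrb1 (7.24 ± 0.595 and 5.54 ± 0.536). Adcy6 and Grk5 overlapped in the Sham-labelled libraries and not in the TAC-labelled ones. Adra1b, Adra1a, Arrb1 and Arrb2 lay below Adrb1. In the Sham-labelled libraries each of these 4 overlapped its neighbour in the order, and in the TAC-labelled ones the pair Arrb1 and Arrb2 did. Adrb3 was last and near 0.

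**Figure D1:**
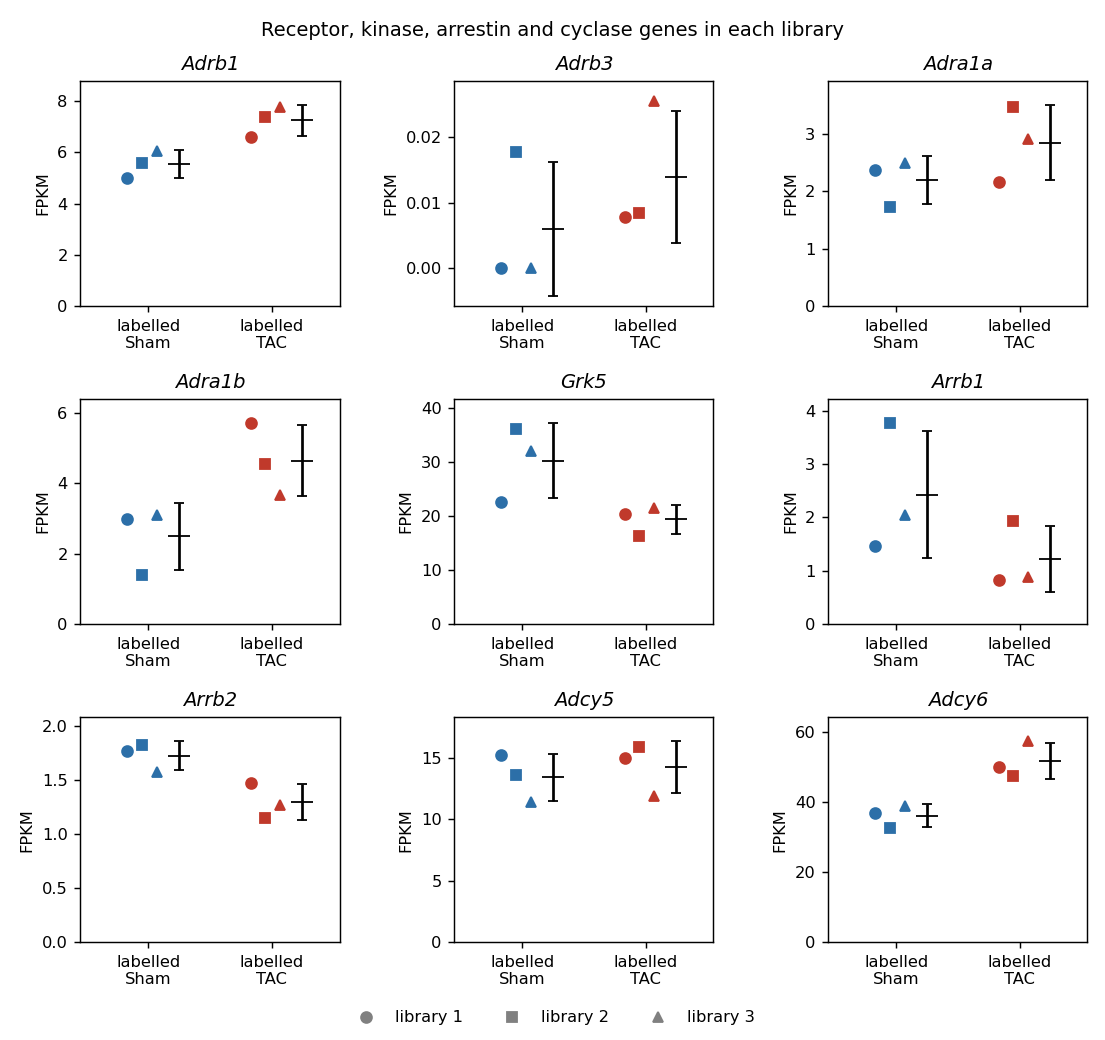
FPKM of each of the 9 genes (vertical axis, one scale per panel) in the 3 libraries labelled Sham and the 3 labelled TAC (horizontal axis); points are libraries, and the bar is the mean with SD. Adrb1, Adra1b and Adcy6 are higher in every library labelled TAC, Grk5 and Arrb2 are higher in every library labelled Sham, and Adrb3 does not exceed 0.0255 FPKM.

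None of the 8 genes that could be tested passed an adjusted p of 0.05 in edgeR's quasi-likelihood test (Benjamini-Hochberg over 15198 genes), where 1.43% of all genes tested passed (0.322% higher in the TAC-labelled and 1.11% higher in the Sham-labelled libraries). Adrb3 was below the filter on low counts. At an unadjusted p under 0.05 there were 4 of the 8, against 20.9% of all genes, namely Adcy6, Adrb1 and Adra1b with higher estimates in the TAC-labelled libraries and Grk5 with a higher one in the Sham-labelled ones. In the same 4 the groups did not overlap in CPM, as in 27.0% of all genes tested. DESeq2 called 2, Adcy6 and Adra1b, at a background of 7.56%. Without the filter on low counts edgeR called 1, Adcy6, at a background of 1.96%. Limma called 0 on log2(FPKM + 0.1) and on log2(FPKM + 1), where it called 207 and 217 genes in all. Differences were positive in 5 of the 8, against 50.9% of all genes. The median log2 difference (labelled TAC minus labelled Sham) was 0.30 over the 8 genes and 0.01 over all genes tested, and the median size without sign was 0.51 against 0.23.

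Adrb1 encodes the beta-1 receptor, the main beta receptor of heart muscle (chromosome 19, 56722372 to 56724862, GRCm38). It had 353, 369 and 383 counts in libraries TAC 1, 2 and 3, and 257, 394 and 263 in Sham 1, 2 and 3. Scaled, these were 17.1, 18.8 and 19.5 CPM against 12.3, 13.9 and 14.3 CPM. Once depth was scaled, every TAC-labelled library was above every Sham-labelled one. Sham 2, which had the most raw counts of the gene, is also the deepest library. Adrb1 had a log2 difference of 0.45 (SE 0.13, 95% interval 0.16 to 0.74; 1.37-fold) and did not pass (adjusted p = 0.116).

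Adrb3, the beta-3 receptor gene, best known from fat, was at the limit of detection (chromosome 8, 27225776 to 27229588). It had 1, 1 and 3 counts in the TAC-labelled libraries and 0, 3 and 0 in the Sham-labelled ones. A count of 0 allows up to 3 counts, which is 0.143 CPM in the library labelled Sham 1 and 0.163 in Sham 3. No library exceeded 3 counts, so no fold is given and a difference was not detectable at this depth. The 6 adipocyte markers, among them Adipoq and Plin1, together summed to at most 2.69 CPM, and each was at 0 in at least 1 library.

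Adra1b and Adra1a encode the alpha-1B and alpha-1A receptors, the Gq-coupled arm of the response in cardiomyocytes. Adra1b (chromosome 11, 43774606 to 43901210) stood at 29.4, 23.1 and 18.4 CPM in libraries TAC 1, 2 and 3. It stood at 14.7, 6.99 and 14.5 CPM in Sham 1, 2 and 3. The groups did not overlap, and Sham 2 was lowest by far. Its log2 difference was 0.98 (SE 0.30, interval 0.28 to 1.67; 1.97-fold, adjusted p = 0.135), the largest of the 8. DESeq2 gave an adjusted p of 0.0258, and over all alternatives it ran from there to 0.292.

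Adra1a (chromosome 14, 66635251 to 66733462) had 37.9, 59.8 and 49.6 CPM in the TAC-labelled libraries and 39.6, 29.1 and 39.7 in the Sham-labelled ones. Its groups overlapped, because TAC 1 lay below Sham 1 and Sham 3. The log2 difference was 0.44 (SE 0.20, interval -0.01 to 0.90; adjusted p = 0.247), and it was 0.28 without the library labelled TAC 2. The ratio of Adra1a to Adra1b in FPKM was 0.377, 0.760 and 0.78967 in the TAC-labelled libraries and 0.78995, 1.22 and 0.799 in the Sham-labelled ones. The groups touch between TAC 3 and Sham 1. The mean log2 ratio differed by -0.59, with an exact two-sided permutation p of 0.1, the smallest that 3 against 3 allows (0.3 adjusted over 3 ratios). Without the library labelled TAC 1 the difference was -0.24, and without Sham 2 it was -0.38. Adra1d, the third alpha-1 gene, was at 2.43 ± 0.2196 and 2.17 ± 0.282 CPM (log2 difference 0.16, adjusted p = 0.733). Alpha-2 receptors, which restrain noradrenaline release, were scarce: Adra2a had 0 or 1 count per library, Adra2c at most 5 and Adra2b between 16 and 56 counts.

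Grk5 encodes the membrane-bound receptor kinase abundant in heart (chromosome 19, 60889749 to 61092553). It stood at 67.0, 53.0 and 68.4 CPM in the TAC-labelled libraries and at 70.6, 114.7 and 95.6 in the Sham-labelled ones. The groups did not overlap, but Sham 1 exceeded TAC 3 only narrowly. The log2 difference was -0.58 (SE 0.19, interval -1.02 to -0.14; 1.49-fold, adjusted p = 0.151), and leaving out Sham 2 made it -0.40. Among 5 chosen GRK genes (Grk2 to Grk6), Grk5 made up 54.0% to 62.6% of the FPKM in the TAC-labelled libraries and 62.9% to 71.3% in the Sham-labelled ones. Grk2, the other main cardiac receptor kinase (listed as Adrbk1), was at 49.0 ± 2.60 and 47.9 ± 3.68 CPM (log2 difference 0.03, SE 0.11, adjusted p = 0.892). Its sign turned with some scalings and left-out libraries. Grk6 had a log2 difference of 0.03, whose sign also turned, and Grk4 of -0.34 (adjusted p = 0.921 and 0.389).

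Arrb1 and Arrb2 encode beta-arrestin 1 and 2. Arrb1 (chromosome 7, 99535466 to 99606771) was the most variable of the 8, at 13.0, 29.6 and 13.3 CPM in the TAC-labelled libraries and 21.8, 56.6 and 28.9 in the Sham-labelled ones. The groups overlapped, with TAC 2 above Sham 1 and Sham 3, and Sham 2 was far above the next library. This gave a log2 difference of -0.94 (SE 0.43, interval -1.94 to 0.05; adjusted p = 0.259), which became -0.44 without Sham 2 and -1.44 without TAC 2. Arrb2 (chromosome 11, 70432635 to 70440828) was low and even, at 8.12, 6.21 and 6.76 against 9.28, 9.71 and 7.87 CPM. Its groups overlapped in CPM and were separate in FPKM, where no library scaling beyond the total was applied. Arrb2 had a log2 difference of -0.35 (SE 0.17, interval -0.74 to 0.04; adjusted p = 0.284). The ratio of Arrb1 to Arrb2 in FPKM was 0.565, 1.68 and 0.695 in the TAC-labelled libraries and 0.827, 2.06 and 1.297 in the Sham-labelled ones. The difference of -0.58 in log2 had an exact permutation p of 0.4, and was -0.25 without Sham 2, -0.27 without TAC 1 and -1.06 without TAC 2. The fibroblast and macrophage marker sums given above were also higher in the Sham-labelled libraries, and their part in the arrestin and Grk5 values was not tested.

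Adcy6 and Adcy5 encode the calcium-inhibited cyclases that carry most beta-receptor signalling in heart muscle. Adcy6 (chromosome 15, 98589994 to 98607633) stood at 312.6, 292.7 and 347.8 CPM in the TAC-labelled libraries and at 219.1, 196.3 and 222.0 in the Sham-labelled ones. The groups did not overlap. It had a log2 difference of 0.58 (SE 0.11, interval 0.32 to 0.84; 1.496-fold), with the smallest p of the 8 (adjusted p = 0.0551). It passed in DESeq2 (adjusted p = 0.000861) and with no filter on low counts (0.0451), and over all alternatives the adjusted p ran up to 0.164. Adcy5 (chromosome 16, 35154877 to 35305737) was at 108.8, 113.7 and 83.8 CPM against 105.4, 95.4 and 75.7. Its groups overlapped widely, with the third library lowest in both. The log2 difference was 0.15 (SE 0.17, interval -0.24 to 0.53; adjusted p = 0.659), which was 0.02 without the library labelled Sham 3 and 0.27 without TAC 3. The cardiomyocyte marker sum, mostly Ttn, was higher in every library labelled TAC as well, and its part in the Adcy6 and Adrb1 values was not tested.

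**Figure D2:**
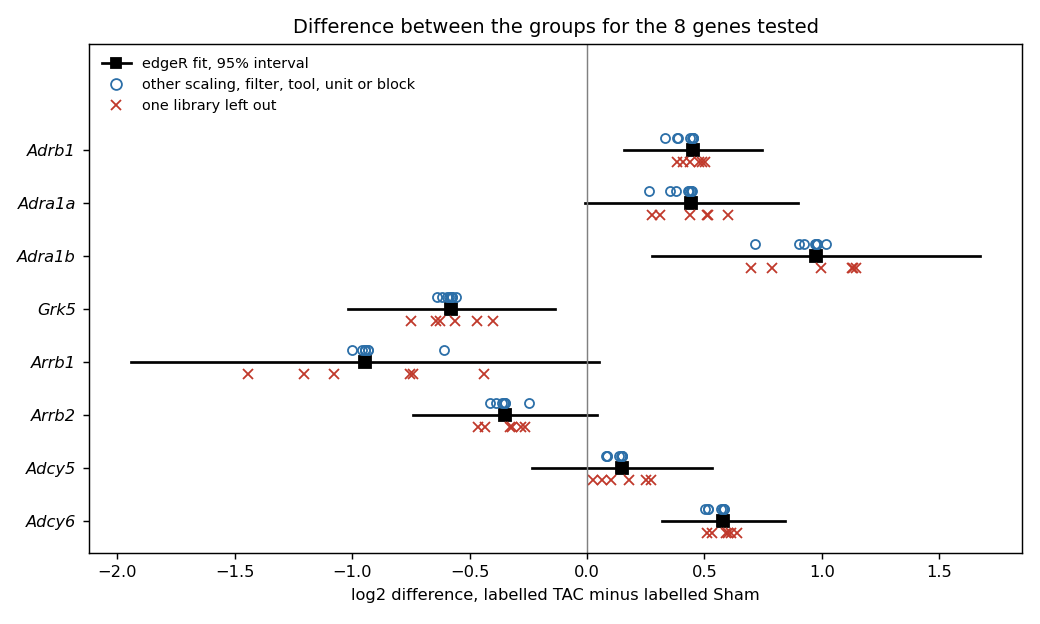
Log2 difference between the groups, labelled TAC minus labelled Sham (horizontal axis), for the 8 genes tested (vertical axis); squares are the edgeR fit with its 95% interval, circles other scalings, filters, tools, units or the block, and crosses fits with one library left out. All alternatives reuse the same libraries and keep the sign of the edgeR fit, and Arrb1 spreads most, from -1.44 to -0.44.

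The make-up of the cyclase family was compared per length. Adcy6 took 58.4% to 65.3% of the FPKM of 10 adenylyl cyclase genes in the TAC-labelled libraries and 45.5% to 53.5% in the Sham-labelled ones. Adcy5 took 13.5% to 19.5% and 15.6% to 21.0%. The ratio of Adcy5 to Adcy6 was 0.299, 0.334 and 0.207 in the TAC-labelled libraries and 0.413, 0.417 and 0.293 in the Sham-labelled ones. Those groups overlapped, and the log2 difference of -0.43 had an exact permutation p of 0.3 (0.4 adjusted over the 3 ratios). The share that fell to Adcy7, a cyclase best known from blood and immune cells, was 2.59% to 5.62% in the TAC-labelled libraries and 9.73% to 16.0% in the Sham-labelled ones. A higher share of one gene lowers the others, so the shares of Adcy6 and Adcy7 are not separate observations. Adcy7 itself had 18.3, 29.6 and 14.5 CPM against 44.2, 72.6 and 51.9 CPM (log2 difference -1.43, SE 0.29, adjusted p = 0.0579). It passed in DESeq2 (7.46e-05), without TMM scaling (0.0422) and with no filter (0.0250), over a range of alternatives up to 0.163. The macrophage sum was higher in the Sham-labelled libraries too, and its part in this was not tested. Adcy3 had a log2 difference of -0.63 (adjusted p = 0.124) and Adcy9 of 0.32 (adjusted p = 0.241; 0.22 without Sham 2), while Adcy4, at 32.0 ± 3.26 and 30.5 ± 4.01 CPM, differed by 0.07 (adjusted p = 0.811).

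**Figure D3:**
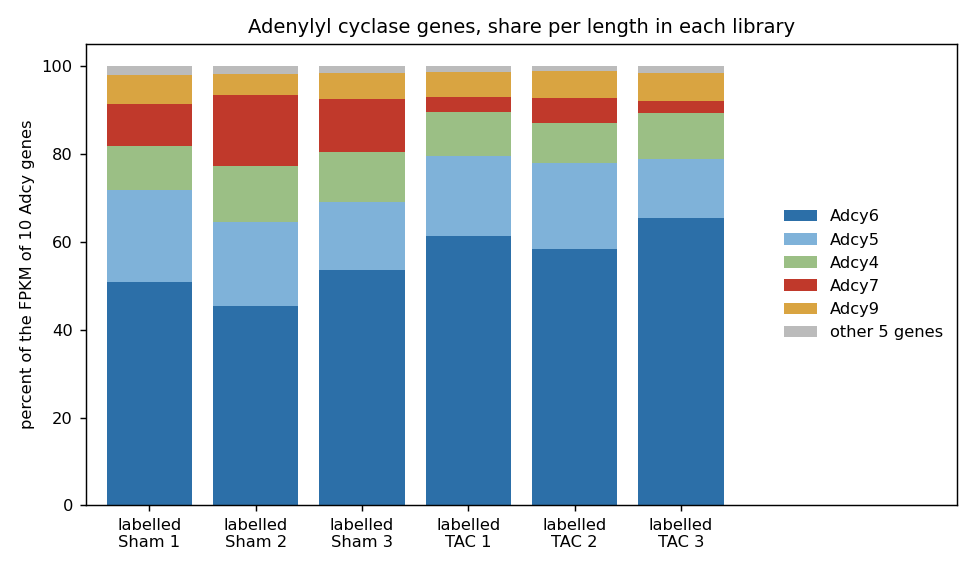
Share of each adenylyl cyclase gene in the summed FPKM of 10 such genes (vertical axis, percent) in the 3 libraries labelled Sham and the 3 labelled TAC (horizontal axis); stacked colours are genes. Adcy6 takes 58.4% or more in every library labelled TAC and 53.5% or less in every library labelled Sham, and Adcy7 shows the opposite order. Shares within a library depend on one another, so these orders are not separate observations.

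Further along the pathway, 107 genes in 11 lists were read from the same fit. None of the 100 tested passed over all genes in edgeR. Limma called 0 of the pathway genes, where its 2 fits called 207 and 217 genes in all. DESeq2 called 11 of the 107, where it called 7.56% of all genes. These were Adcy7, Tnni3, Rgs2, Pde8a, Pde10a, Pde1a, Ryr2, Maoa, Akap13, Cacna1c and Dbh, the last of which the edgeR filter had left out. At an unadjusted p under 0.05 there were 16 higher in the TAC-labelled libraries and 14 higher in the Sham-labelled ones, against 9.56% and 11.4% of all genes tested. The median log2 difference over the 100 was 0.03.

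Among G protein subunits (15 tested, 6 with positive and 9 with negative differences, median -0.07), Gnas, the stimulatory alpha subunit, was at 303 ± 30.4 and 267.5 ± 10.7 CPM (log2 difference 0.18, adjusted p = 0.396). Gnai2, an inhibitory alpha subunit, was at 86.5 ± 7.13 and 103.8 ± 9.54 (-0.26, adjusted p = 0.245). Gnb5 and Gnb1, beta subunits, had differences of 0.38 and -0.26 (adjusted p = 0.228 and 0.232). Of 8 PKA subunits and inhibitors, 4 were positive. The catalytic subunit Prkaca was at 191 ± 9.16 and 151.8 ± 21.7 CPM (0.33, adjusted p = 0.197). Prkar2b, a regulatory subunit, and Pkia, an inhibitor, had 0.93 and 0.24 (adjusted p = 0.329 and 0.362). Prkar2b was 0.30 without the library labelled TAC 1, where it stood at 4.35 CPM against 1.02 and 2.29 in TAC 2 and TAC 3, and Pkia was 0.15 without Sham 2. Of 9 anchoring proteins, which place PKA at its targets, 5 were positive. Akap13 had -0.44, Akap1 0.53 and Akap8 0.23 (adjusted p = 0.111, 0.192 and 0.229).

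PKA targets and their regulators had the highest median of the 11 lists, 0.40, with 10 of 12 positive, against 50.9% of all genes tested. The 12 ran from -0.73 to 0.63, so the largest difference in size was a negative one. Like the other lists, this one was chosen with earlier results of these data known. Tnni3, the cardiac troponin I gene, was at 1908 ± 78.0 and 1232 ± 129 CPM (log2 difference 0.63, SE 0.13, adjusted p = 0.0568). It passed in DESeq2 (0.000187), with no filter (0.0453) and without the library labelled Sham 1 (0.0494), over a range up to 0.175. Ryr2, the calcium release channel, had 0.52 and Cacna1c, the L-type calcium channel, 0.45 (adjusted p = 0.128 and 0.125). Ryr2 is also among the cardiomyocyte markers whose sum, mostly Ttn, was higher in the TAC-labelled libraries. The part that the share of cardiomyocytes has in the values of this list was not tested.

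Phosphodiesterases, which break down cyclic nucleotides, had differences of both signs, 7 positive and 6 negative of 13. Pde8a was at 36.6 ± 5.10 and 56.8 ± 6.13 CPM (-0.63, adjusted p = 0.0711), Pde1a at 12.6 ± 1.82 and 19.1 ± 0.821 (-0.60, adjusted p = 0.0830), and Pde10a at 4.09 ± 0.631 and 7.83 ± 1.91 (-0.94, adjusted p = 0.0915). Their DESeq2 adjusted p were 0.00825, 0.0181 and 0.0155, and without TMM scaling Pde8a also passed in edgeR (0.0432). On the Gq branch (17 tested, 8 positive), Rgs2, a brake on Gq signalling, was at 29.1, 31.7 and 73.5 CPM in the TAC-labelled libraries and 23.3, 15.3 and 12.8 in the Sham-labelled ones. Its log2 difference of 1.39 (SE 0.39, adjusted p = 0.115) was the highest of the 100 genes and was 0.83 without the library labelled TAC 3. DESeq2 gave it an adjusted p of 0.00442. Prkce and Prkcd, protein kinase C isoforms, had 0.33 and -0.55 (adjusted p = 0.127 and 0.140). In the EPAC and CaMKII branch, 4 of 8 were positive, with Rap1b at -0.43, Camk2d at 0.43 and Camk2a at 0.87 (adjusted p = 0.128, 0.144 and 0.203). Camk2a was 0.54 without the library labelled Sham 2.

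Of the catecholamine genes 5 of 8 were tested, 2 with positive and 3 with negative log2 differences (median -0.33). Maoa, a monoamine oxidase, was at 5.24 ± 0.277 and 8.17 ± 0.296 CPM (-0.64, adjusted p = 0.0757), and the transporter Slc22a3 at 6.52 ± 1.67 and 3.18 ± 1.42 (1.049, adjusted p = 0.171). Th, the first enzyme of noradrenaline synthesis, had 0 counts in all 6 libraries. Dbh, the enzyme that makes noradrenaline from dopamine, had 8, 39 and 28 counts in the TAC-labelled libraries and 1, 5 and 5 in the Sham-labelled ones. It was below the edgeR filter, passed in DESeq2 (adjusted p = 0.0106), and was singled out after its values were seen. The 6 Schwann cell and sympathetic nerve markers, which include Th and Dbh, summed to 7.18 to 7.69 CPM in the TAC-labelled libraries and 2.86 to 6.08 in the Sham-labelled ones. With Dbh taken out of the sum the groups overlap, so the sum is not separate from the Dbh values. The part of these cell types in the Dbh values was not tested.

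**Figure D4:**
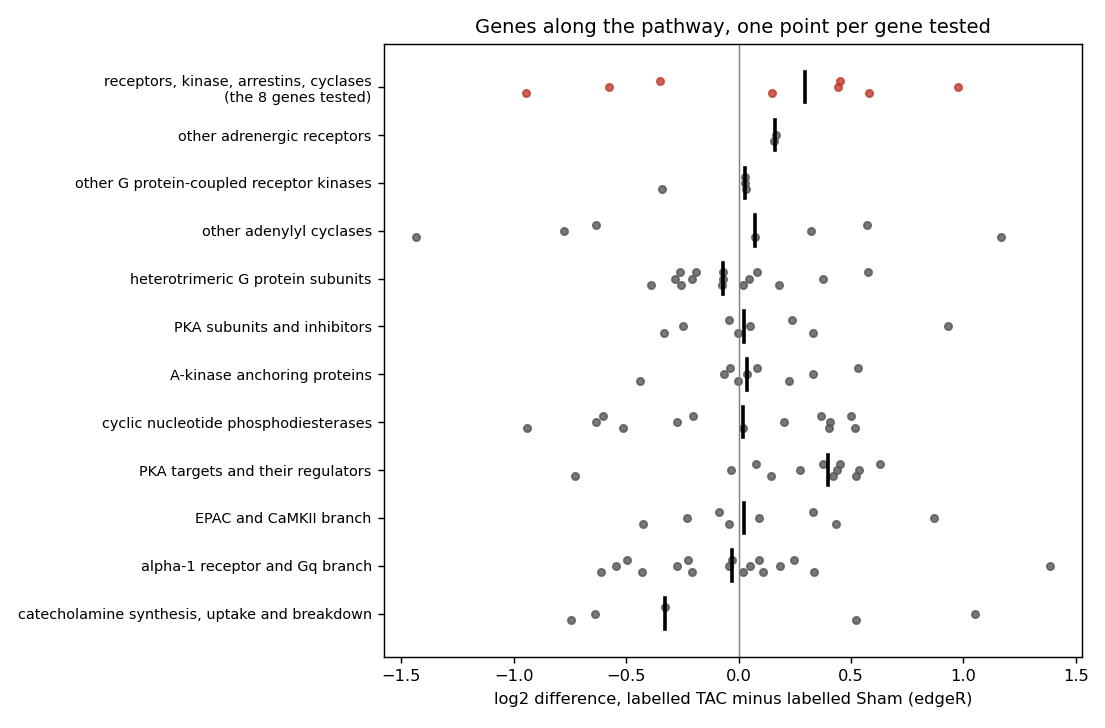
Log2 difference between the groups, labelled TAC minus labelled Sham (horizontal axis), of each gene tested in the receptor group (top row) and in 11 lists of the pathway; points are genes and bars are medians. Most list medians lie near 0, PKA targets have a median of 0.40 and catecholamine genes one of -0.33. Adcy7 at -1.43 and Rgs2 at 1.39 lie farthest out.

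The genes whose pattern over the 6 libraries was closest to each of the 8 genes were found by the root mean square difference of centred log2 CPM, over 9981 genes. The 8 genes' own root mean square ran from 0.211 for Adcy5 to 0.730 for Arrb1. Closest to Adcy6 were Aasdh (0.0236) and Mtr, the methionine synthase gene (0.0443). Closest to Adrb1 were Manba, a lysosomal mannosidase gene (0.049999), and Tfeb, a transcription factor of lysosomal genes (0.0506). Adra1b was nearest to Ybx2 (0.146) and to the potassium channel gene Kcnn2 (0.186), and Adra1a to Tmem147os (0.0364) and Ushbp1 (0.0781). Grk5 was nearest to Ugdh (0.0641) and the pseudogene Cd63-ps (0.0645). Arrb1 was nearest to Sparc, a matrix protein gene (0.232), and the complement gene C1s1 (0.253), both farther than the nearest genes of the other 7. Arrb2 was nearest to Far1 (0.0509) and Pter (0.0669), and Adcy5 to Apol10b (0.0485) and Vopp1 (0.0557). With 6 libraries many genes share a pattern, and these are descriptions.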

How the data were processed

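Left ventricle RNA of 6 libraries, 3 labelled TAC and 3 labelled Sham, was measured by total RNA-seq. The authors deposited raw counts per gene and per lncRNA transcript, and FPKM values that, tested on the file, divide each gene count by a length and the library's total. Per the submitters' processing notes HISAT2 2.0.4, StringTie 1.3.0 and GRCm38 were used. The sources used here do not give their roles, the counting program, strand setting or annotation version. Columns were matched to libraries through the description labels; all value columns found one.

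The 9 genes and all lists were chosen with earlier results of these data known. Counts of the whole table were fitted in edgeR 4.0.16 (R 4.3.3) by the quasi-likelihood method with TMM scaling, filterByExpr and no block. The threshold was an adjusted p of 0.05. SE is the log2 difference over the square root of F, and intervals use the fit's degrees of freedom. Ratios of FPKM were compared by exact permutation. The fit was also run on simulated counts. Their planted differences were larger than any that the fit described above estimated for the 9 genes. That run therefore does not cover differences of the size this fit gave for them. Alternatives used DESeq2 1.42.0, limma 3.58.1 on log2(FPKM + 0.1) or log2(FPKM + 1), other scalings, no filter, a block and left-out libraries. Named were all 9 genes and up to 3 genes of each list with the smallest p, plus genes needed to explain a member; 1 gene that this rule names is not reported here. Of 107 list symbols, Grk2 and Grk3 were found under older names. Replicate libraries differed beyond counting noise (chi-square per gene at least 16.7). Floors and count limits cover counting error only.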

Additional observations from a re-analysis of the deposited data

How the results depend on the processing

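The sign of the difference held for all 8 genes tested in 112 of 112 alternative values, and 3 of these passed the threshold. All of these values reuse the same libraries, so they are not independent and do not replicate the result. The number of the 9 genes called was 0 in edgeR, 2 with DESeq2 (Adcy6 and Adra1b), 1 with no filter on low counts (Adcy6) and 0 in the other alternatives, each left-out library included. The number of pathway genes called was 0 in edgeR, 2 with unscaled totals (Adcy7 and Pde8a), 11 with DESeq2, 2 with no filter (Adcy7 and Tnni3), and between 0 and 1 with a library left out. Among all genes tested, edgeR called 217, of which 168 were higher in the Sham-labelled group. The count was 338 with unscaled totals (296 higher in the Sham-labelled libraries), 1166 with DESeq2 and 432 with no filter. It was 207 and 217 with limma at pseudocounts of 0.1 and 1, and 0 to 397 with a library left out. Without the library labelled TAC 1 it was 0, without TAC 2 10, without TAC 3 22, without Sham 1 397, without Sham 2 24 and without Sham 3 40.

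With the replicate number as a block 41 genes were called, 1 of them a pathway gene (Adcy7, adjusted p = 0.0489), and none of the 9. Deviations of same-numbered libraries from their group means had correlations of -0.136 to -0.0959, and those of differently numbered ones 0.0142 to 0.111. No library correlated best with its own number. With 3 libraries per group this cannot show whether same-numbered libraries share a batch or a pairing. The block changed no other call among the receptor and pathway genes. Its values for Nppa, Acta1 and Thbs4 are not given here.

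Small differences turned sign. Adra2b was -0.26 without TAC 3 and -0.11 without Sham 3, with 0.51 as its highest value, without TAC 1. Grk2 was -0.032 with unscaled totals, -0.029 and -0.025 with limma at pseudocounts of 0.1 and 1, -0.0053 without TAC 1 and -0.032 without Sham 1, up to 0.073 without TAC 2. Grk6 was -0.038, -0.039 and -0.033 under the same 3 settings, -0.024 without TAC 1, -0.0017 without TAC 2 and -0.0094 without Sham 1, up to 0.11 without TAC 3. A transcript within Grk5 was 0.030 without Sham 2 (lowest -0.78, without Sham 1), and one within Arrb1 was -0.17 without TAC 3 (highest 0.28, without TAC 1). The causes were not tested. With a library left out the log2 difference of the Adcy5 to Adcy6 ratio ran from -0.60 to -0.23, of Arrb1 to Arrb2 from -1.06 to -0.25 and of Adra1a to Adra1b from -0.78 to -0.24. The limma fit with a pseudocount of 1 shrank low genes, such as Pde10a (-0.18), Slc22a3 (0.56), Prkar2b (0.17) and Camk2a (0.38). Depth limits Adrb3, Adra2a, Adra2c and Dbh.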

Other observations

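The deposited lncRNA table holds 24 transcripts within 10 kb of the 9 genes, of which 9 were tested in edgeR on that table. This comparison was added after seeing the data. None passed over all transcripts (0.106% of 16035 did), in edgeR, DESeq2 or limma, and 4 were at an unadjusted p under 0.05, against 12.6% of all. In 8 of the 9 the difference had the sign of the neighbouring gene. How often transcripts near other genes share the sign of their neighbour was not tested, so this count has no background. Of the 9, 4 lie within Grk5 and are not separate observations. The sources used here do not state a strand setting, so reads of such a transcript and of the gene it lies in cannot be told apart.

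Beyond the Adra1a gene lies a transcript at chromosome 14, 66736659 to 66740067, 3197 bases past the gene's end in the table. It stood at 7.04, 6.74 and 6.83 FPKM in the TAC-labelled libraries and at 4.58, 3.92 and 5.045 in the Sham-labelled ones. Its groups did not overlap (log2 difference 0.50, SE 0.15, adjusted p = 0.269), while those of Adra1a did, and its libraries labelled TAC lay closer together than those of Adra1a.

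Within Grk5 lie 4 tested transcripts. The one at chromosome 19, 60896252 to 60896961, stood at 3.02, 3.63 and 3.68 FPKM in the TAC-labelled libraries and at 3.54, 7.81 and 3.97 in the Sham-labelled ones. The library labelled Sham 2, the highest for Grk5 itself, was also highest here (log2 difference -0.70, SE 0.35, adjusted p = 0.469; -0.22 without Sham 2). Another, at 60944759 to 60945943, stood at 1.35, 1.73 and 0.915 against 1.52, 2.49 and 2.52 FPKM (log2 difference -0.81, SE 0.32, adjusted p = 0.374).

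Near Adrb1, a transcript at chromosome 19, 56734412 to 56735093, 9550 bases past the gene, had 25, 33 and 45 counts in the TAC-labelled libraries and 20, 16 and 15 in the Sham-labelled ones. Its difference on the log2 scale was 0.97 (SE 0.34, adjusted p = 0.326).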
